A study of Saccharomyces cerevisiae with 12 samples.

Results

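The large subunit assembly genes are 39 genes of budding yeast, Saccharomyces cerevisiae, whose proteins build the large ribosomal subunit in the nucleolus, the nucleoplasm and at export to the cytoplasm. They were chosen by gene symbol from a list of known assembly factors, and each is read by 1 probe set. Earlier results of these data were known at that time, so the counts that passed are not those of a blind choice. All 39 were among the 5449 genes of the table and among the 5345 genes tested. RNA levels came from 12 Affymetrix arrays in 4 groups of 3 biological samples. The groups were wild type untreated, wild type with Congo Red, a gcn5 mutant untreated and the gcn5 mutant with Congo Red. Both strains were of the BY4741 background, an auxotrophic haploid laboratory strain, and all cultures grew in the rich medium YPD. Every culture was split before treatment, with Congo Red added to one part at 30 µg/ml for 3 h; the dye binds wall polysaccharides such as chitin and disturbs the cell wall. GCN5 codes for a histone acetyltransferase, the catalytic subunit of the coactivators SAGA and ADA, and how the gene was disrupted is not stated in the labels.

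The large subunit starts as a long precursor RNA made by RNA polymerase I, which is cut, modified and folded while ribosomal proteins are added. Helicases, GTPases, methyltransferases and scaffold proteins bind in sequence, remove the internal spacer ITS2 and then leave the particle before or after export. Genes for such factors are known in yeast as a regulon that rises and falls with growth conditions.

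Values are log2 levels per probe set, so a difference of 1 is a 2-fold difference, and levels of different genes are not compared. A change "passed" where its p-value from limma, adjusted over all 5345 genes by the Benjamini-Hochberg method, was under 0.05. Group values are means ± SD over 3 arrays, and changes carry limma's standard error (SE). Arrays measure relative levels, so fewer cells of a kind and less RNA per cell cannot be told apart, nor would a shift of all transcripts be seen. The arrays were alike in distribution, with medians from 8.98 to 9.05, a likeness that the quantile normalization of the deposited values brings about. GCN5 read 8.13 to 8.33 on the 6 wild type arrays and 3.02 to 4.08 on the 6 mutant arrays. Markers of a cells were present, while the alpha pheromone gene MF(ALPHA)1 stayed between 3.42 and 3.90 on all arrays. Of the other alpha cell markers, STE3 read 4.81 to 5.53 and MF(ALPHA)2 4.65 to 5.81, but SAG1 read 7.92 to 8.45. The arrays numbered 3 stood apart in mating genes in both strains. AGA2 was at 9.25 and 9.0 on those of wild type against 11.25 to 11.42 on the other wild type arrays. MFA2 was at 10.24 and 9.87 on those of the mutant against 11.60 to 11.74 on the other mutant arrays. Counts of passing members are therefore given with and without the 4 arrays numbered 3.

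**Figure D1:**
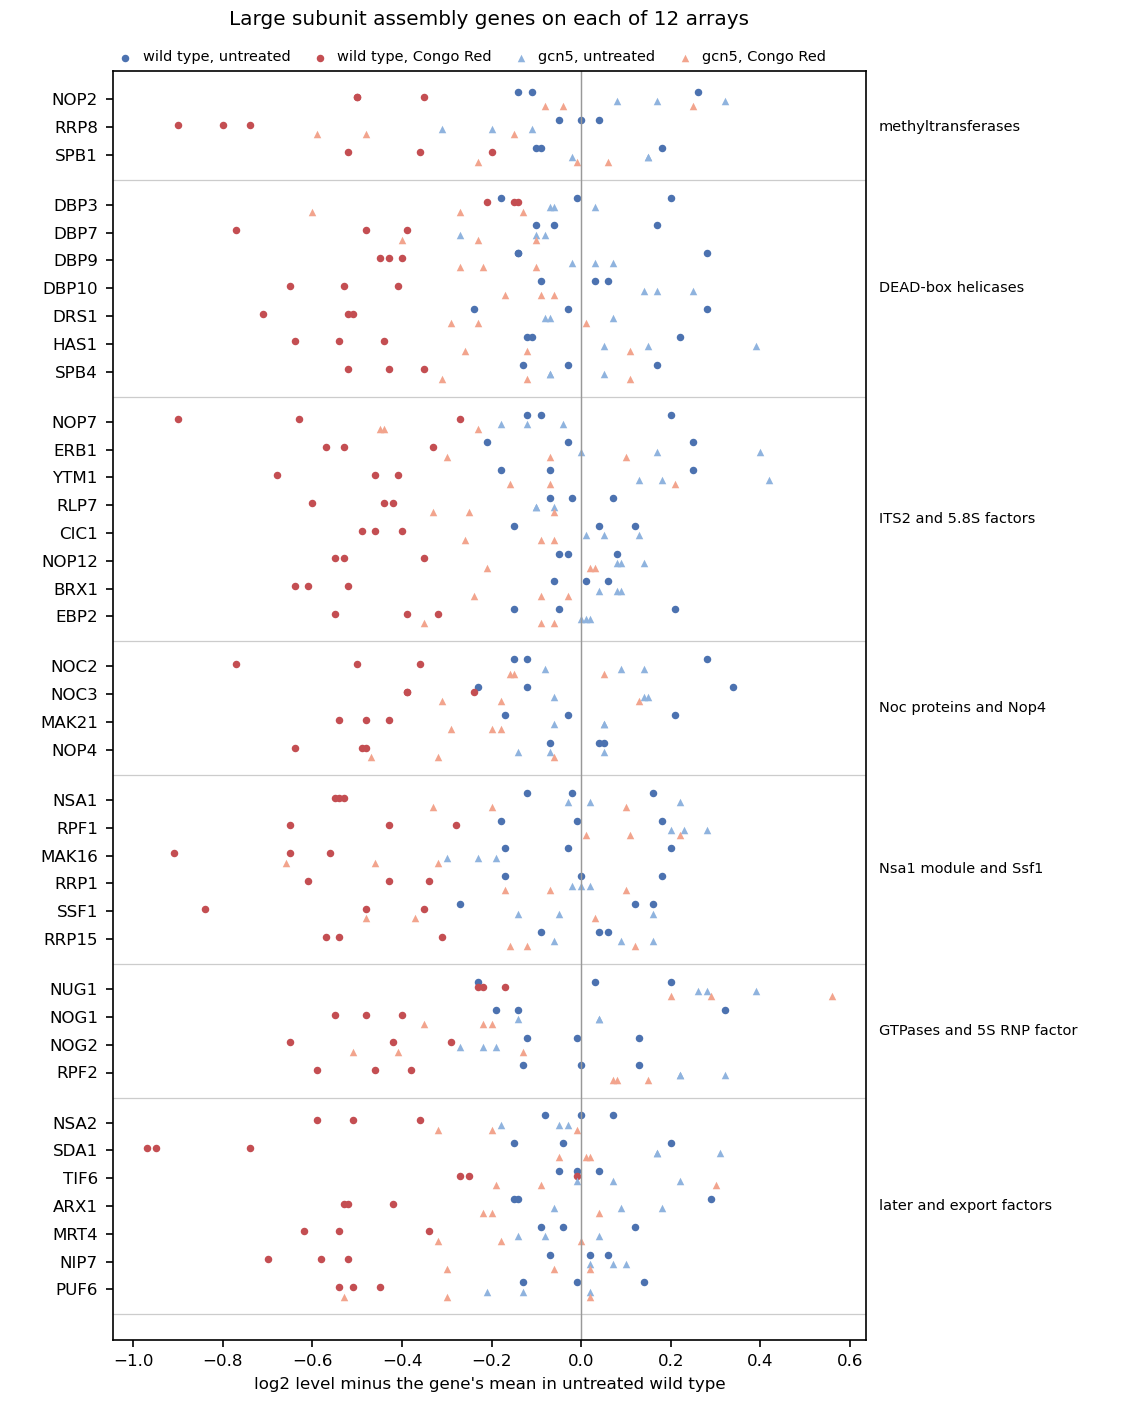
Log2 level of each of the 39 genes on each of 12 arrays, minus the gene's mean in untreated wild type. Points are single arrays, with 3 per group (circles wild type, triangles gcn5 mutant, blue untreated, red Congo Red), and rows are ordered by role. The wild type Congo Red points lie left of the untreated wild type points in 36 of the 39 rows, while the mutant's groups lie closer together.

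Congo Red lowered most of these genes in wild type. Of the 39, 31 fell, 0 rose and 8 did not pass, against 3.91% of all genes tested that fell. All 39 changes were below 0, as were 53.7% of the changes of all genes. The median change was -0.49, against -0.02 over all genes, and single changes ran from -0.89 to -0.17. The untreated and treated groups did not overlap in 36 of the 39, with the treated arrays lower, where 14.8% of all genes did so. The 2 parts of a culture were taken to be the arrays of equal number in the sample titles. In 37 of the 39 the level was lower in the treated part of all 3 cultures, against 30.0% of all genes. With the arrays numbered 3 left out, 18 of the 39 fell and the median was -0.43. With the 2 parts of a culture as a replicate block 35 of the 39 fell, the 31 and also NOP2, SPB1, ERB1 and SSF1, in a fit where 11.5% of all genes fell.

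SDA1 (YGR245C), needed for nuclear export of the large subunit and for passage through the start of the cell cycle, moved furthest. Its level was 10.67, 10.56 and 10.91 on the untreated wild type arrays and 9.74, 9.76 and 9.97 with Congo Red. The groups lay far apart, and the 3 cultures fell by much the same, with differences of -0.93, -0.80 and -0.94. The change was -0.89 ± 0.11 (SE; limma adjusted p = 0.0005), a 1.85-fold fall, which ranked 10 of 5345 genes from the lowest change.

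Of the 3 methyltransferase genes, RRP8 (YDR083W), which methylates an adenine of the large subunit's rRNA, fell. It read 10.18, 10.14 and 10.09 untreated and 9.24, 9.34 and 9.40 with Congo Red, so each treated array was well below each untreated one. The change was -0.81 ± 0.11 (SE; limma adjusted p = 0.0015), or 1.76-fold. NOP2, a cytosine methyltransferase gene, was at 10.72 ± 0.22 untreated and 10.27 ± 0.08 with Congo Red (SD, n = 3), which just missed the threshold at -0.46 ± 0.13 (SE; limma adjusted p = 0.0512, and 0.00375 with the block). SPB1, which methylates the ribose of the peptidyl transferase loop, changed by -0.36 ± 0.12 (SE) and did not pass either (limma adjusted p = 0.0939, and 0.0203 with the block). In both genes the treated arrays nonetheless all lay below the untreated ones.

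Of the 7 DEAD-box helicase genes, whose proteins unwind or clamp RNA in early particles, 6 fell. DBP10 (YDL031W) read 10.46, 10.34 and 10.49 untreated and 10.02, 9.90 and 9.78 with Congo Red. Its groups did not overlap, and the change was -0.53 ± 0.09 (SE; limma adjusted p = 0.00385). DRS1 fell by 0.58 ± 0.14, DBP7 by 0.55 ± 0.13, HAS1 by 0.54 ± 0.14, SPB4 by 0.44 ± 0.12 and DBP9 by 0.43 ± 0.11 on the log2 scale (SE). The untreated array numbered 3 was the highest of its group for each of these. DBP3 was the exception, at 10.68, 10.51 and 10.89 untreated and 10.55, 10.48 and 10.54 with Congo Red. Those groups overlapped, and the change of -0.17 ± 0.13 (SE) was within the spread (limma adjusted p = 0.523, 95% interval -0.46 to 0.11).

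Of the 8 genes for factors around ITS2 and the 5.8S rRNA, 7 fell. BRX1 (YOL077C), whose protein acts with that of EBP2 in early particles, read 11.70, 11.77 and 11.82 untreated and 11.12, 11.24 and 11.15 with Congo Red. Both groups were tight, and the change was -0.59 ± 0.08 (SE; limma adjusted p = 0.00139). NOP7, ERB1 and YTM1 encode the 3 proteins of 1 complex that is needed to process ITS2. NOP7 fell by 0.60 ± 0.15 and YTM1 by 0.52 ± 0.14 (SE), whereas ERB1 at -0.48 ± 0.15 (SE) missed the threshold (limma adjusted p = 0.0735, and 0.00913 with the block). NOP7 also varied most among the treated wild type arrays, at 10.04, 9.77 and 10.40 (SD 0.32). RLP7, a relative of a ribosomal protein that binds at ITS2, fell by 0.48 ± 0.09, NOP12 by 0.48 ± 0.09, CIC1 by 0.45 ± 0.09 and EBP2 by 0.42 ± 0.12 on the log2 scale (SE).

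The Noc proteins form pairs that travel with early and intermediate particles, and Nop4 binds RNA in the earliest ones. MAK21, which encodes Noc1, fell by 0.49 ± 0.10, NOC2 by 0.55 ± 0.14 and NOP4 by 0.54 ± 0.11 on the log2 scale (SE). NOC3 read 9.46, 9.57 and 10.03 untreated and 9.30, 9.45 and 9.30 with Congo Red. The groups all but touched, the untreated array numbered 3 stood well above the rest, and the change of -0.34 ± 0.16 (SE) did not pass (limma adjusted p = 0.24).

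In the group of the Nsa1 module and Ssf1, factors of early nucleolar particles, 5 of 6 fell. MAK16 (YAL025C) read 8.71, 8.57 and 8.94 untreated and 8.09, 8.18 and 7.83 with Congo Red. The groups did not overlap, but the cultures differed in how far they fell, by -0.62, -0.39 and -1.11. The change was -0.70 ± 0.13 (SE; limma adjusted p = 0.00642). NSA1 fell by 0.55 ± 0.12, RRP15 by 0.47 ± 0.11, RRP1 by 0.46 ± 0.11 and RPF1 by 0.45 ± 0.12 on the log2 scale (SE). SSF1 changed by -0.56 ± 0.18 (SE) and missed the threshold (limma adjusted p = 0.0724, and 0.00154 with the block). SSF1 has a near-identical copy, SSF2, so its probe set may read both genes, and SSF2 itself changed by -0.28 ± 0.12 (SE; limma adjusted p = 0.194).

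Of the GTPase genes, NOG1 fell by 0.47 ± 0.13 and NOG2 by 0.45 ± 0.12 on the log2 scale (SE). NUG1 did not pass: it read 10.78, 10.52 and 10.95 untreated and 10.58, 10.52 and 10.53 with Congo Red. Its groups overlapped, and the change was -0.21 ± 0.12 (SE; limma adjusted p = 0.393). RPF2 (YKR081C), whose protein brings the 5S RNA with its ribosomal proteins into the particle, read 10.82, 10.69 and 10.95 untreated and 10.36, 10.23 and 10.44 with Congo Red. All 3 cultures fell by nearly the same, with differences of -0.46, -0.46 and -0.51, and the change was -0.48 ± 0.09 (SE; limma adjusted p = 0.00873).

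Of the 7 genes grouped as later and export factors, 6 fell, SDA1 among them, although the proteins of NIP7 and PUF6 also act earlier. NIP7 (YPL211W), whose protein binds Nop8 in nucleolar particles, read 11.51, 11.38 and 11.47 untreated and 10.93, 10.75 and 10.87 with Congo Red. The groups lay far apart, and the change was -0.60 ± 0.10 (SE; limma adjusted p = 0.00352). MRT4, whose protein holds the place of the stalk protein P0, fell by 0.50 ± 0.11 and PUF6, also a translational repressor of ASH1 mRNA, by 0.50 ± 0.13 on the log2 scale (SE). The export factor gene ARX1 fell by 0.49 ± 0.13 and NSA2 by 0.49 ± 0.10 (SE). TIF6 encodes the factor that keeps the new subunit from joining the small one. It read 11.39, 11.35 and 11.44 untreated and 11.15, 11.39 and 11.13 with Congo Red, so the array numbered 2 did not follow the other two. Its change of -0.17 ± 0.13 (SE) did not pass (limma adjusted p = 0.523, 95% interval -0.46 to 0.11).

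**Figure D2:**
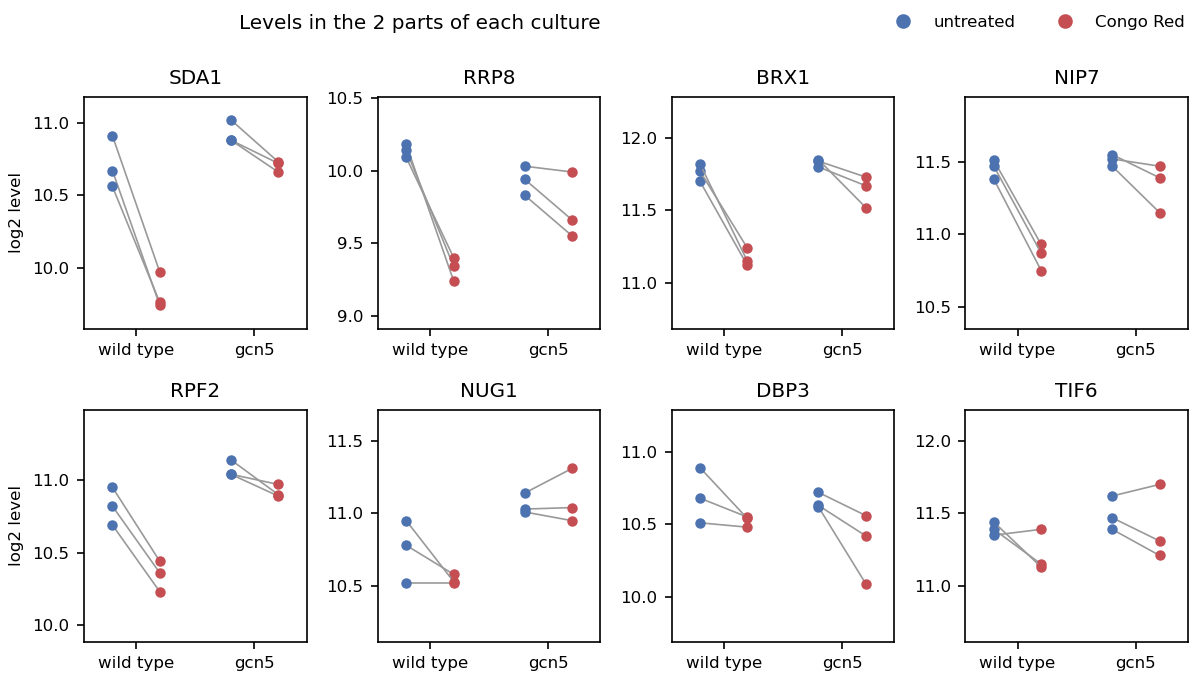
Log2 level of 8 genes in the untreated (blue) and Congo Red (red) parts of each culture, 3 per strain, with a line joining the 2 parts of a culture. Each panel spans 1.6 log2 units. SDA1, RRP8, BRX1, NIP7 and RPF2 dropped steeply in all 3 wild type cultures, while NUG1, DBP3 and TIF6 overlapped between the wild type groups.

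The number passing in wild type depended on single arrays more than the direction did. Leaving out the untreated array numbered 3 gave 12 and leaving out the one numbered 1 gave 19. The count was 17, 13 and 18 with the treated arrays numbered 1, 2 and 3 left out in turn, and 17 when only the 6 wild type arrays were fitted. The median stayed between -0.54 and -0.41 when single arrays were left out. The untreated array numbered 3 was the highest of its group for 33 of the 39 genes, and the one numbered 2 the lowest for 22. RRP8, DBP10, RLP7, BRX1, RPF2, SDA1 and NIP7 passed in all 21 fits made.

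Other ribosome production genes moved the same way in wild type, to differing extents. Of 49 other large subunit factor genes 13 fell and 0 rose, with a median of -0.43, where 3.91% of all genes fell. MAK5, a helicase gene, fell by 0.71 ± 0.11, and REA1, the large ATPase that strips factors from the particle, by 0.49 ± 0.09 on the log2 scale (SE). Of 65 small subunit factor genes 35 fell and 0 rose, with a median of -0.51, led by RRP36 at -0.79 ± 0.10 (SE). Of 28 genes of the RNA polymerase I and III machinery 11 fell and 0 rose, with a median of -0.37, and RPC25 of polymerase III was at -0.81 ± 0.10 (SE). None of 8 snoRNP protein genes passed (limma; 6 with an unadjusted p under 0.05). Their treated arrays nonetheless lay below the untreated ones in 8 of 8, against 14.8% of all genes, with a median of -0.29. Whether these medians differ from that of the 39 genes was not tested.

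Few structural genes of the subunit and no regulator passed. Of 75 large subunit ribosomal protein genes 1 fell, RPL27B at -0.28 ± 0.08 (SE; limma adjusted p = 0.049). The median of these 75 was -0.06, with 64 of the 75 changes below 0, or 85.3% against 53.7% of all genes. None of 16 genes for known regulators of the regulon passed (limma; 1 with an unadjusted p under 0.05). Passing was uncommon among all 5345 genes too: 3.91% fell, 5.33% rose and 1149 had an unadjusted p under 0.05 (limma). Of the regulators RAP1 had the smallest p, at -0.27 ± 0.10 (SE; limma adjusted p = 0.109). Of 34 general stress genes 5 rose and 0 fell, with a median of 0.33, where 5.33% of all genes rose. SPI1 was at 1.05 ± 0.15, NTH1 at 1.06 ± 0.19 and HSP12 at 1.31 ± 0.34 (SE). Of 4 markers of sporulating diploids, IME2 rose by 0.71 ± 0.19 and SPO11 by 1.42 ± 0.38 (SE), while IME1 and SPS4 did not pass. SPO11 read 4.24 to 4.68 untreated and 6.53, 6.47 and 4.73 with Congo Red, so the array numbered 3 stayed near the untreated level. The part of general stress or of these markers in the fall of the assembly genes was not tested.

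**Figure D3:**
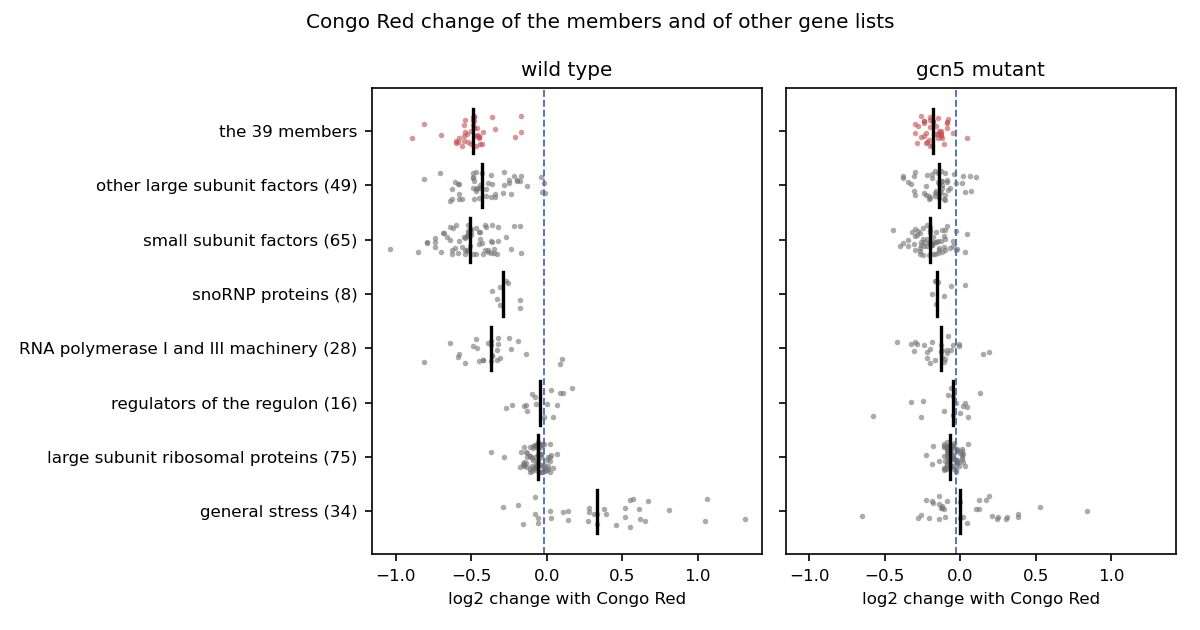
Log2 change with Congo Red of each gene in the 39 members and 7 other lists, in wild type (left) and the gcn5 mutant (right). Points are genes, with random vertical scatter, black bars are list medians, the dashed line is the median of all genes tested and numbers in brackets are genes per list. In wild type the medians of the members and the small subunit factors were -0.49 and -0.51; they were -0.18 and -0.20 in the mutant.

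In the gcn5 mutant none of the 39 genes passed with Congo Red (limma; 4 with an unadjusted p under 0.05), where 0.0748% of all genes fell and 8.1% had an unadjusted p under 0.05. The changes were nevertheless below 0 in 38 of the 39, against 59.2% of all genes, with a median of -0.18 against -0.03. They ran from -0.30 to 0.04. The treated arrays lay below the untreated ones without overlap in 14 of the 39, against 7.95% of all genes. In 29 of the 39 the level was lower in the treated part of all 3 cultures, against 27.2% of all genes. Without the arrays numbered 3, 0 passed and the median was -0.19.

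The lowest adjusted p in the mutant was that of DBP10, which read 10.68, 10.57 and 10.60 untreated and 10.34, 10.26 and 10.37 with Congo Red. These groups did not overlap, and the change was -0.30 ± 0.09 (SE; limma adjusted p = 0.254). MAK21 at -0.24 ± 0.10, BRX1 at -0.19 ± 0.08 and DBP3 at -0.30 ± 0.13 (SE) were the others with an unadjusted p under 0.05. DBP3, which overlapped between the wild type groups, read 10.63, 10.72 and 10.62 in the untreated mutant and 10.42, 10.56 and 10.09 with Congo Red, so its mutant groups did not overlap.

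SDA1 read 10.88, 10.88 and 11.02 in the untreated mutant and 10.66, 10.72 and 10.73 with Congo Red. The treated arrays were the lower ones, but the change was small, at -0.23 ± 0.11 (SE; limma adjusted p = 0.636, 95% interval -0.46 to 0.01). RRP8 read 10.03, 9.94 and 9.83 untreated and 9.99, 9.66 and 9.55 with Congo Red. Its groups overlapped, and the interval of the change of -0.20 was -0.45 to 0.05. MAK16 changed by -0.24 (95% interval -0.52 to 0.05) and NIP7 by -0.18 (-0.40 to 0.04). NUG1 was the 1 gene above 0, at 0.04 (-0.23 to 0.31), with 11.03, 11.01 and 11.14 untreated and 11.04, 10.95 and 11.31 treated.

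By role, the mutant's median changes were -0.22 for the helicases, -0.21 for the Noc proteins with Nop4 and -0.19 for the ITS2 factors. They were -0.17 for the Nsa1 module with Ssf1, -0.16 for the later and export factors, -0.15 for the methyltransferases and -0.14 for the GTPases with RPF2. In wild type they ran from -0.53 for the helicases to -0.46 for the methyltransferases and for the GTPases with RPF2. No gene of the lists of other large subunit factors, small subunit factors, snoRNP proteins, polymerase I and III machinery, large subunit ribosomal proteins, regulators or general stress passed in the mutant (limma). The counts with an unadjusted p under 0.05 were 4, 11, 0, 8, 3, 1 and 4, in that order. Of the markers of sporulating diploids IME2 rose in the mutant too, by 0.91 ± 0.19 (SE; limma adjusted p = 0.048), and the other 3 did not pass.

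**Figure D4:**
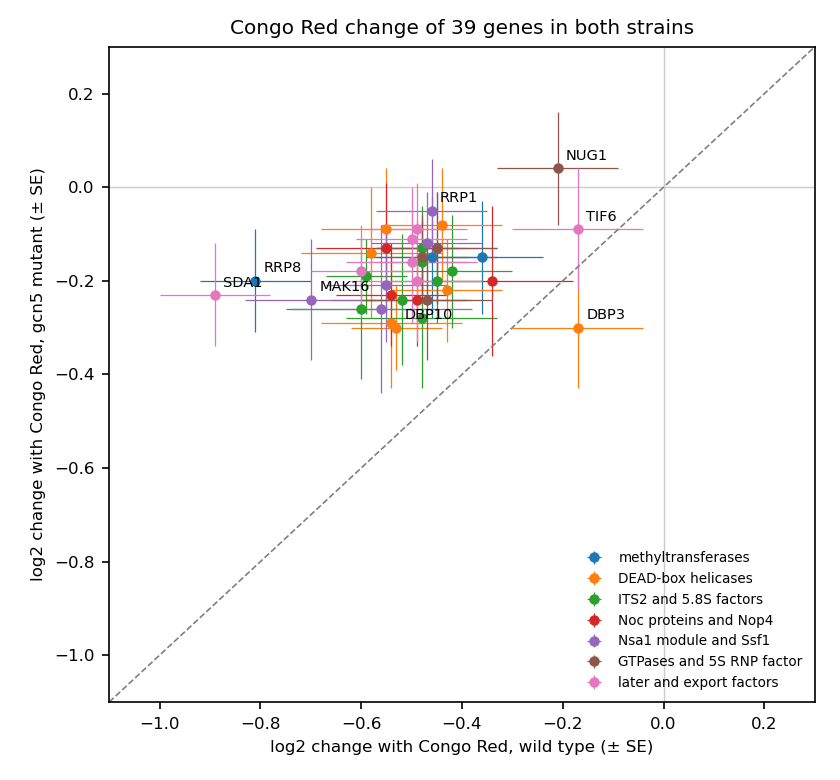
Log2 change with Congo Red in wild type (horizontal) and in the gcn5 mutant (vertical) for the 39 genes, with bars of 1 SE from limma and colours for roles. On the dashed line both strains would change alike. Of the 39 points 38 lie above that line, and DBP3 lies below it.

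Whether the strains differed in their response was tested by the difference of the changes, mutant minus wild type, which uses all 4 groups. None of the 39 passed (limma; 14 with an unadjusted p under 0.05), where 0.0561% of all genes passed and 5.8% had an unadjusted p under 0.05. The difference was above 0 in 38 of the 39, meaning a smaller fall in the mutant, against 46.4% of all genes. The median was 0.32, against -0.02 over all genes, and leaving out single arrays kept it between 0.26 and 0.37. Without the arrays numbered 3, 0 passed and the median was 0.22.

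SDA1 had the largest difference of the 39, at 0.66 ± 0.15 (SE; 95% interval 0.34 to 0.99; limma adjusted p = 0.294). RRP8 followed at 0.61 ± 0.16 (SE; interval 0.26 to 0.97; limma adjusted p = 0.43), then MAK16 at 0.47 (0.07 to 0.87) and DBP7 at 0.45 (0.06 to 0.85). With the 2 parts of a culture as a replicate block, SDA1 passed at 0.66 ± 0.10 (SE; limma adjusted p = 0.0285). That fit called 0.561% of all genes and no other member, with RRP8 next at an adjusted p of 0.067 (limma). At the other end were TIF6 at 0.08 (-0.32 to 0.49) and DBP3 at -0.13 (-0.53 to 0.27), intervals that hold differences of either sign.

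Before treatment the strains differed little in these genes. None of the 39 passed between the untreated groups (limma; 2 with an unadjusted p under 0.05), where 9.82% of all genes passed and 24.9% had an unadjusted p under 0.05. The median difference, mutant minus wild type, was 0.05, and the range -0.24 to 0.31. The mutant arrays lay above all wild type arrays in 4 genes (DBP10, RPF1, NUG1 and RPF2) and below them in 3 (RRP8, MAK16 and NOG2), against 17.3% and 15.1% of all genes. NUG1 was at 10.75 ± 0.22 in wild type and 11.06 ± 0.07 in the mutant (SD, n = 3), a difference of 0.31 ± 0.12 (SE; limma adjusted p = 0.144). With the replicate number as a block NUG1 passed (limma adjusted p = 0.0453), in a fit that called 19.2% of all genes. RPF2 was at 10.82 ± 0.13 and 11.07 ± 0.06 (SD, n = 3), a difference of 0.25 ± 0.09 (SE; limma adjusted p = 0.113). Without the arrays numbered 3, 0 passed and the median difference was 0.11.

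Of the 16 regulators 1 was higher in the untreated mutant, or 6.25% against 4.9% of all genes. It was CRF1, a corepressor gene of ribosomal protein genes, at 1.72 ± 0.48 (SE; limma adjusted p = 0.0468). CRF1 read 4.48 ± 0.28 in untreated wild type, near the filter of 4, and 6.2 ± 0.81 in the untreated mutant (SD, n = 3). Of the 49 other large subunit factors 2 were lower, or 4.08% against 4.92% of all genes. They were ARB1, an ATPase gene, and REH1, for a late cytoplasmic factor, at -0.42 ± 0.11 and -0.33 ± 0.09 (SE). Of the 6 a cell markers 4 were lower in the untreated mutant, with MFA1 at -3.60 ± 0.44 (SE; limma adjusted p = 0.00087). The part of the mating state in the strain comparisons of the assembly genes was not tested.

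In Congo Red 13 of the 39 genes were higher in the mutant than in wild type and 0 were lower, against 4.57% of all genes that were higher. This comparison shares its wild type arrays with the fall in wild type described above, so they are not separate evidence. The difference was above 0 in 38 of the 39, against 49.9% of all genes, with a median of 0.33. The mutant arrays lay above the wild type arrays without overlap in 28 of the 39, against 14.6% of all genes. Of the 13, 11 were among the 31 that fell in wild type, and the other two were NOP2 and NUG1. Without the arrays numbered 3 the count was again 13 and the median 0.35.

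SDA1 led here as well. Its 3 wild type arrays in Congo Red read 9.74, 9.76 and 9.97 and the mutant's 10.66, 10.72 and 10.73. The difference was 0.88 ± 0.11 (SE; limma adjusted p = 0.00055), or 1.84-fold. RPF2 read 10.36, 10.23 and 10.44 in wild type against 10.89, 10.90 and 10.97 in the mutant, 0.58 ± 0.09 higher (SE; limma adjusted p = 0.00281). RPF1 read 9.49, 9.27 and 9.64 against 10.14, 10.03 and 9.93, which is 0.57 ± 0.12 higher (SE; limma adjusted p = 0.0115). In all 3 genes every mutant array lay above every wild type array.

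In the main fit, without a block, neither NUG1 nor NOP2 had passed a test of Congo Red within a strain. With the culture as a block NOP2 passed in wild type, and NUG1 passed in neither strain. NUG1 read 10.58, 10.52 and 10.53 in wild type against 11.04, 10.95 and 11.31 in the mutant, 0.56 ± 0.12 higher (SE; limma adjusted p = 0.0149). NOP2 was 0.49 ± 0.13 higher (SE; limma adjusted p = 0.0328). The remaining 8 were YTM1 at 0.51 ± 0.14, NIP7 at 0.48 ± 0.10, BRX1 at 0.47 ± 0.08, RRP15 at 0.42 ± 0.11, NOP12 at 0.42 ± 0.09, DBP10 at 0.42 ± 0.09, RRP1 at 0.41 ± 0.11 and RRP8 at 0.41 ± 0.11 (SE). By role these 13 comprised 2 of the 3 methyltransferases, 1 of the 7 helicases, 3 of the 8 ITS2 factors, 0 of the 4 Noc proteins with Nop4 (limma; 3 with an unadjusted p under 0.05), 3 of the 6 of the Nsa1 module with Ssf1, 2 of the 4 GTPases with RPF2 and 2 of the 7 later factors. DBP3 alone was below 0, at -0.16 ± 0.13 (SE; 95% interval -0.45 to 0.12).

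The count in Congo Red fell to 7 without the wild type array numbered 1 or the one numbered 2, to 8 without the untreated mutant array numbered 2, and to 3 when only the 6 arrays compared were fitted. RPF2 and SDA1 passed in all 21 fits. Of the other lists, 19 of 65 small subunit factor genes were higher and 0 lower. Of 49 other large subunit factor genes 4 were higher and 2 lower, or 8.16% and 4.08%. Of 28 genes of the RNA polymerase I and III machinery 3 were higher and 0 lower, or 10.7% higher. Of 8 snoRNP protein genes 1 was higher and 0 lower, or 12.5% higher. Of 34 general stress genes 0 were higher and 6 lower, or 17.6% lower. Of all genes 4.57% were higher and 6.4% lower. REA1 was 0.54 ± 0.09 and RCL1, of the small subunit, 0.56 ± 0.08 higher (SE). None of the 75 large subunit ribosomal protein genes passed (limma; 2 with an unadjusted p under 0.05). Of the 16 regulators 1 was higher, or 6.25%: IFH1, an activator of ribosomal protein genes, by 0.42 ± 0.11 (SE; limma adjusted p = 0.036).

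**Figure D5:**
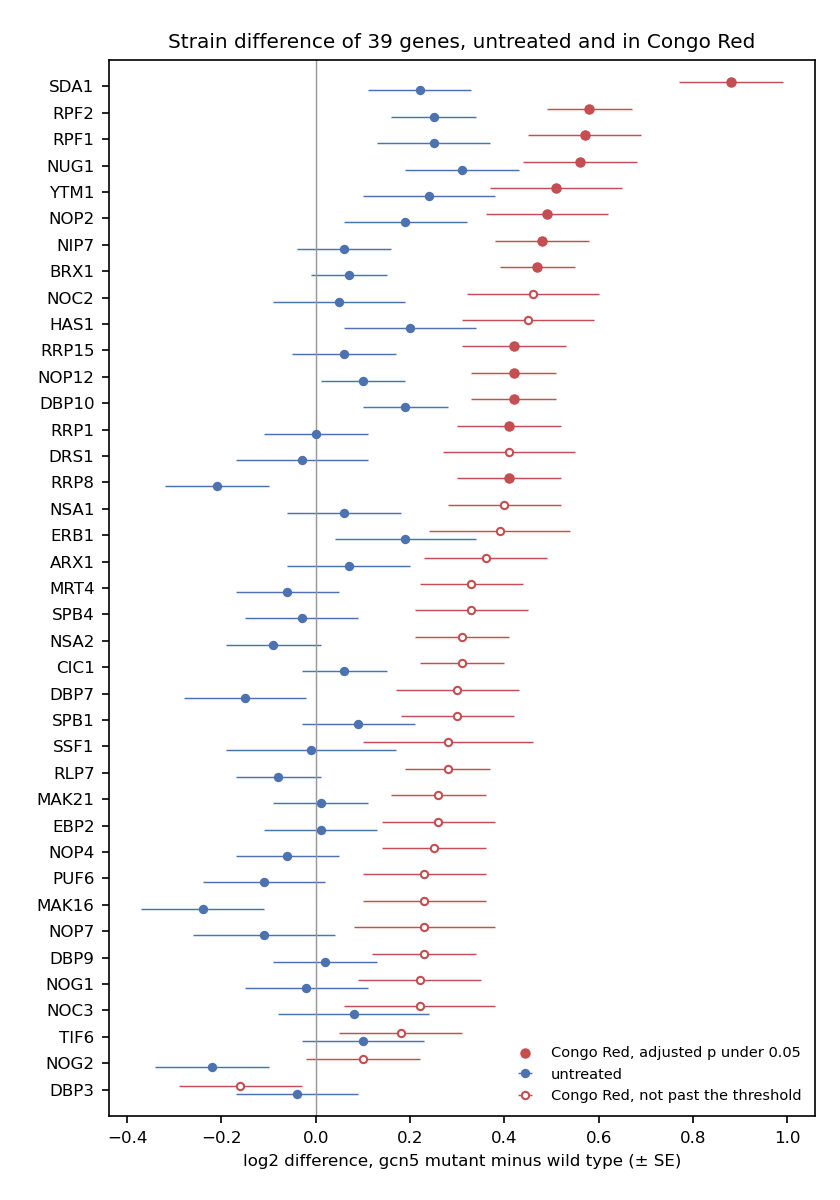
Log2 difference, gcn5 mutant minus wild type, of the 39 genes without Congo Red (blue) and with it (red), with bars of 1 SE from limma, ordered by the difference in Congo Red. Filled red points passed the threshold. The untreated differences lie between -0.24 and 0.31, and in Congo Red 38 of the 39 lie above 0, with SDA1 at 0.88.

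The 39 genes lie on 13 of the 16 nuclear chromosomes. Of these, 7 have an immediate neighbour that also belongs to a ribosome production list, and those neighbours were named for their position. The pairs on opposite strands were DBP7 with RPC37, NOC2 with RET1, RPF1 with GAR1, SSF1 with RRP3, RRP15 with NOC4 and NSA2 with LCP5, and NOC3 with CMS1 was on 1 strand. In wild type with Congo Red the neighbours changed by -0.33, 0.09, -0.36, -0.32, -0.37 and -0.50, and CMS1 by -0.41. RET1, of RNA polymerase III, was the 1 neighbour above 0, beside a change of -0.55 ± 0.14 (SE) in NOC2.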

How the data were processed

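Total RNA of 12 samples, the untreated and treated parts of divided cultures, was measured on 1-colour Affymetrix arrays. Groups came from the titles. Per probe set the authors deposited 1 log2 value per array, made with GCRMA according to the submitters' processing notes; no version of it is given in the sources used here. Quantile normalization within GCRMA hides shifts of all transcripts. Of 5716 probe sets 5498 had 1 gene symbol, 0 several and 218 none, and 12 symbols were updated from RefSeq names (assembly R64). For 47 genes with several probe sets, none of them a member, the one with the highest mean was kept. Genes with log2 over 4 on at least 3 arrays were tested (5345).

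Tests used limma 3.58.1 in R 4.3.3, with 4 group means over 12 arrays (8 residual degrees of freedom), contrasts and eBayes, checked on simulated data. The simulated arrays were independent of each other, so that check does not cover the correlation between the parts of a culture. The number of arrays limits the precision, and each p-value sets a change against the spread between arrays of a group, pooled over the 4 groups. Without the block, the fit does not use the division of the cultures. Its SEs for Congo Red and the interaction therefore include differences between cultures. Deviations of equally numbered arrays correlated at 0.53 to 0.74 (wild type) and 0.57 to 0.84 (mutant) across the divided cultures, at 0.39 to 0.53 between untreated strains, and at 0.33, -0.08 and 0.11 between strains in Congo Red. The block was the culture, matched by the number in the titles, for Congo Red and the interaction, and the number for the strain contrasts.

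Members and lists were chosen with earlier results of these data known, and 4 genes were moved between or dropped from the other lists after values were seen, for their function. Outside the 39, the text names GCN5, mating markers, SSF2, up to 4 genes of smallest p per list and neighbours by position. Promoter and protein sequences were not analysed here.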

Additional observations from a re-analysis of the deposited data

Results flagged for a closer look

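SDA1 was set apart by a difference between strains. With the culture as a replicate block, the difference of its Congo Red changes, mutant minus wild type, passed the threshold at 0.66 ± 0.10 (SE; limma adjusted p = 0.0285). The 3 wild type cultures changed by -0.93, -0.80 and -0.94 and the 3 mutant cultures by -0.22, -0.16 and -0.29, so the strains did not overlap. These are the same differences that the block fit used. Other members did not overlap between strains either. RRP8 changed by -0.94, -0.80 and -0.70 in wild type and by -0.04, -0.28 and -0.28 in the mutant. NIP7 changed by -0.58, -0.63 and -0.60 in wild type and by -0.17, -0.32 and -0.06 in the mutant. The share of all genes without such overlap was not counted. Without the block the same difference did not pass (limma adjusted p = 0.294).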

How the results depend on the processing

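The changes of the 39 genes kept their sign under every alternative in wild type, while changes that had not passed turned sign in 5 fitted values in the mutant, 3 between strains in Congo Red, 37 between untreated strains and 5 of the interaction. Leaving out single arrays gave 12 to 32 passing members in wild type, 7 to 16 between strains in Congo Red and 0 in each fit of the other comparisons. Over all genes it gave 260 to 572 in wild type, 17 to 59 in the mutant, 3 to 5 for the interaction, 265 to 615 between untreated strains and 350 to 616 in Congo Red. With the replicate block the counts over all genes were 1272, 212, 30, 1024 and 1048 in that order, against 494, 62, 3, 525 and 586 without it. Passing members with the block were 35, 0, 1 (SDA1), 1 (NUG1) and 23, against 31, 0, 0, 0 and 13. Numbers did not pair the strains in Congo Red, so the 23 rests on a shared number only. Fitting only the arrays compared gave 17 members in wild type and 3 between strains in Congo Red, and 15 genes in the mutant and 316 between strains in Congo Red. An intensity trend gave 6 interaction genes. Leaving out the arrays numbered 3, chosen after seeing the data, gave 18 members in wild type and 13 interaction genes. The cause was not tested, though fits with fewer arrays have less information by construction. Centring the arrays, other filters and averaging probe sets moved no count by over 1.5 times.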
